A study of Mus musculus with 3 samples.

Results

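ALSCs are mouse pluripotent stem cells that were derived from epiblasts of embryonic day 6.5 gastrulae and kept in medium with Activin A and LIF. Here 8 transcription factor genes of the formative and primed epiblast were followed in them, namely *Otx2*, *Pou3f1*, *Zic2*, *Zic5*, *Sox3*, *Foxd3*, *Sall1* and *Sall2*. The genes were taken by name, and all 8 were found once each among the 55421 named genes of the table. The embryos came from ICR females mated with GOF/GFP males of mixed background, which carry a GFP reporter of *Oct4* (Oct4ΔPE-GFP). The study reports ALSCs as negative for this GFP. RNA-seq libraries of polyA RNA were made from 3 samples of ALSCs (replicates 1, 2 and 3), and these are the only condition analysed. Their counts are headed EPI_AL_1, EPI_AL_2 and EPI_AL_3. These headings were matched to the ALSC samples by reading the name, as the labels do not state the match. The study describes its RNA-seq data as coming from 3 biological replicates. The labels do not say whether the samples came from separate lines, embryos or passages, so the spread between them may be partly technical. No comparison with EpiSCs, AFSCs or ESCs was made.

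When the mouse embryo implants, its epiblast leaves the naive state, passes through a formative phase in which it becomes competent for lineage induction, and then reaches the primed state from which EpiSCs are derived. OTX2 and POU3F1 (also known as OCT6) are classic regulators of this transition and bind with OCT4 at enhancers that open after naive exit. ZIC2 and ZIC5 are zinc finger factors of the ZIC family, SOX3 is a SOXB1 factor related to SOX2, FOXD3 is a forkhead factor of the epiblast that is used again in the neural crest, and SALL1 and SALL2 are zinc finger factors of the spalt family. Several of these genes are also known for later work in the anterior neural plate, which forms from the same epiblast.

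Promoter windows from RefSeq (build GRCm38.p6, 250 bases before to 50 after a transcription start) were found for 5 of the 8 genes. They are shown for *Zic5*, *Sall1* and *Sall2*, the 3 factors whose counts varied between the libraries below, with the window nearest to the 5' end of each gene and, for *Sall2*, the second start as well. Capitals mark matches on either strand to any of 4 short motifs: the TATA box (TATAAA), the CCAAT box (CCAAT), the GC box (GGGCGG) and the core bound by OTX proteins (TAATCC).
*Zic5*, chr14:122465609-122465908, minus strand: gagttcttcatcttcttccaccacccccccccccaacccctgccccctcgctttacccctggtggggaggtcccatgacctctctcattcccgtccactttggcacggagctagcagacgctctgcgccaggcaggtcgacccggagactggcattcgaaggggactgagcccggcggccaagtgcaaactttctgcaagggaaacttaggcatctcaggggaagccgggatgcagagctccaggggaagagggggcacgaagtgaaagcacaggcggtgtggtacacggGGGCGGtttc
*Sall1*, chr8:89044113-89044412, minus strand: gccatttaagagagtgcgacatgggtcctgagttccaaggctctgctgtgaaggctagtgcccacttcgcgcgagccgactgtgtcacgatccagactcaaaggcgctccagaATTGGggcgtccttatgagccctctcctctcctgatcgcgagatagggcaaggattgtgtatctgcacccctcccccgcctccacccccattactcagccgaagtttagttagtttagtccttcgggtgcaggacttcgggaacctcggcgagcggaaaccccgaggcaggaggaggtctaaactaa
*Sall2*, upstream start, chr14:52328621-52328920, minus strand: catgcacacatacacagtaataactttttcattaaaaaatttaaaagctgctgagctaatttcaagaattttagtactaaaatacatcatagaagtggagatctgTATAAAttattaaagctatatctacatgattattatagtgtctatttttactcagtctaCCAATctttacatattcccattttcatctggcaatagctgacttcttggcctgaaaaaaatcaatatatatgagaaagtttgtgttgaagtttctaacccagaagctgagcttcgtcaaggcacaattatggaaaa
*Sall2*, downstream start, chr14:52316274-52316573, minus strand: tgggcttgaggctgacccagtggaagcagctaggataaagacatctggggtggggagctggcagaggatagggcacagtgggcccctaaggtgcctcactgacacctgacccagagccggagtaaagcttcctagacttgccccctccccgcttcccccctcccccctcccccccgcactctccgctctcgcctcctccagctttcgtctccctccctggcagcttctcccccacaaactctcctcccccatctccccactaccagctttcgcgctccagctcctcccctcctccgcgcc

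The windows differed in base composition. That of *Zic5* held 62.7% G and C with 15 CpG dinucleotides, and that of *Sall1* held 57.3% with 18, against medians of 52.7% and 7 over all 32851 windows of this length. The upstream start of *Sall2* lay in a window with 30.3% G and C and 1 CpG, lower in G and C than all but 1.03% of windows. Its downstream start, 12439 bases into the gene, lay in a window with 65.0% and 10 CpG. A TATA box was found in the upstream *Sall2* window and in 13.6% of all windows, and a CCAAT box in that window and in the *Sall1* window, against 37.4% of all. *Zic5* carried 1 GC box (35.7% of all windows). *Sall1* has 2 further annotated starts, 650 and 1300 bases into the gene and not shown, whose windows held 70.0% and 79.7% G and C with 4 and 1 GC boxes. The OTX core was in none of the 4 windows shown and in 7.06% of all windows. Among the 4 annotated starts of *Otx2* itself, 1 window held it. Such matches describe letters and not binding, and the counts do not tell which start of *Sall1* or *Sall2* was used.

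The libraries held between 18037342 and 18724038 counts on named genes. Levels are given as FPKM, computed from the deposited counts, the deposited gene length and these totals, as mean ± SD of the 3 libraries. A count of 0 in a library allows up to 3 counts, a limit that covers counting error only. The label of pluripotent cells was checked on 7 epiblast markers, and all 7 were at 1 FPKM or more in every library, led by *Pou5f1* at 648 ± 25.3 FPKM (SD, n = 3). Over all named genes 20.1% reached that level. Replicate 1 stood apart from the other libraries in several respects. Its top 100 genes held 21.7% of the counts, against 19.0% and 19.3% in replicates 2 and 3. It had 11573 genes at 1 FPKM or more, against 11854 and 11794. Its mitochondrial share was 1.36%, against 1.19% and 1.20%. It also differed by gene length. Genes of 685 bases had in replicate 1 a median log2 ratio of 0.39 to the mean of the other libraries, and genes of 15648.5 bases (medians of the shortest and longest of 20 groups of genes) a median of -0.53, so long genes were counted less often there.

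The 8 factors spanned a 43.7-fold range of levels in ALSCs. *Zic2* was the highest at 50.4 ± 2.03 FPKM, followed by *Pou3f1* at 22.6 ± 1.44, *Zic5* at 18.4 ± 1.76, *Sall1* at 17.3 ± 3.34, *Sall2* at 8.25 ± 1.22, *Otx2* at 5.08 ± 0.472, *Sox3* at 3.86 ± 0.284 and *Foxd3* at 1.15 ± 0.223 FPKM (SD, n = 3 for each). At least 1 FPKM in every library was reached by 7 of the 8 genes, the exception being *Foxd3*. Over all named genes 20.1% reached that level, and over the 1530 genes to which the table gives a transcription factor family 47.5% did. The median of the 8 means was 12.8 FPKM, and that of the 11125 genes that reached 1 FPKM in every library was 8.21 FPKM. Of the 28 pairs that the factors form, 27 had ranges over the libraries that did not overlap. The exception was *Zic5* and *Sall1*, whose ranges overlapped between 16.5 and 19.8 FPKM. The share of such pairs among other genes was not computed, so this count cannot be called particular to the factors.

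**Figure D1:**
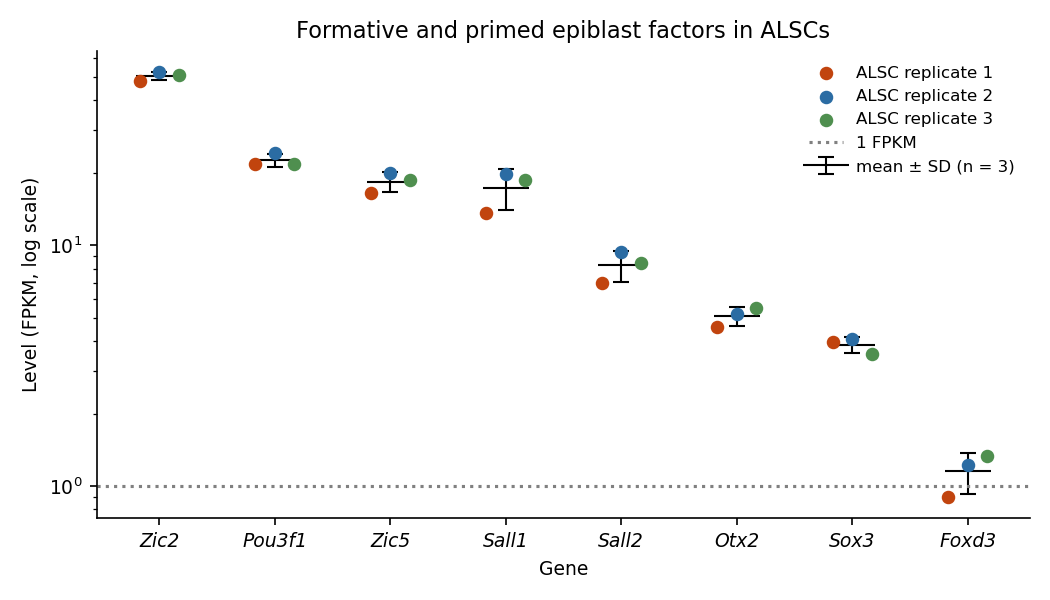
Level of each factor in FPKM on a log axis, ordered by mean. Points are the 3 ALSC libraries, the wide bar and error bar are mean ± SD (n = 3), and the dotted line is 1 FPKM. *Zic2* lies at about 50 FPKM, and *Foxd3* lies around 1 FPKM with replicate 1 under it.

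*Otx2* (ENSMUSG00000021848; GRCm38 chromosome 14, 48657677 to 48673819, minus strand, 6 exons in its longest coding transcript) encodes the homeodomain factor that drives the exit from the naive state. It was counted 348, 411 and 417 times in replicates 1, 2 and 3, which gave 4.56, 5.20 and 5.48 FPKM. The CV over the libraries was 9.29% on plain total counts, where counting error alone gives 5.05%. Among the 726 genes with a transcription factor family and at least 1 FPKM in every library, *Otx2* ranked 331. *Pou3f1* was 4.46 ± 0.416 times as high and *Zic2* 9.95 ± 0.654 times (SD of the ratio, n = 3). The level of *Otx2* rested on the length used. The deposited length of 4221 bases joins the exons of 11 transcripts, while the longest coding transcript has 2592 bases, and with that length *Otx2* was at 8.27 ± 0.768 FPKM. It then overlapped with *Sall2* at 8.71 ± 1.29 FPKM, and 26 of the 28 pairs did not overlap. The antisense gene *Otx2os1*, which overlaps *Otx2*, had 4, 2 and 3 counts, or 0.765% of those of *Otx2*. Reads in stretches shared by overlapping genes cannot be told apart, as the kit used does not mark strand. Low counts of an overlapping gene, here and for *Pou3f1* and *Foxd3* below, thus do not show it to be silent.

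*Pou3f1* (ENSMUSG00000090125; chromosome 4, 124656807 to 124660655, plus strand) is a gene of 1 exon that encodes a POU domain factor able to pair with SOX proteins. Its counts were 1507, 1746 and 1516, or 21.6, 24.2 and 21.8 FPKM in replicates 1, 2 and 3. Replicates 1 and 3 were nearly equal and replicate 2 was highest. It ranked 74 among the 726 transcription factor genes. Of the 50-base words of its transcript 92.6% occurred in no transcript of another gene. The rest were shared with *Gm2164*, an antisense lncRNA that overlaps it and was counted 0, 6 and 0 times.

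*Zic2* (ENSMUSG00000061524; chromosome 14, 122475435 to 122479852, plus strand) and *Zic5* (ENSMUSG00000041703; chromosome 14, 122456795 to 122465677, minus strand) are neighbours that are transcribed away from each other, 9758 bases apart. *Zic2* had 2509, 2813 and 2636 counts, giving 48.2, 52.2 and 50.7 FPKM, and ranked 28 among the transcription factor genes. *Zic5* had 1457, 1827 and 1645 counts, giving 16.5, 19.96 and 18.7 FPKM, and ranked 98. *Zic2* was thus the higher gene of the pair in every library. Within a library the ratio of *Zic2* to *Zic5* was 2.92, 2.61 and 2.72 in replicates 1, 2 and 3, with a mean of 2.75 ± 0.157 (SD, n = 3). Without the correction for length the mean ratio was 1.62, as *Zic5* is the longer gene. All 50-base words of the *Zic2* transcript and 92.3% of those of *Zic5* occurred in no transcript of another gene.

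Between both genes lies the lncRNA *2610035F20Rik*, transcribed from the strand opposite to *Zic2* with its start 236 bases from that of *Zic2*. It was counted 261, 537 and 433 times, giving 6.13, 12.2 and 10.2 FPKM in replicates 1, 2 and 3. Replicate 1 was the lowest by far for this RNA, whereas *Zic2* differed little between the libraries. The ratio of *2610035F20Rik* to *Zic2* was 0.127, 0.234 and 0.201 in replicates 1, 2 and 3. The counts of the lncRNA were unequal beyond counting error (adjusted p = 1.73e-15 in the chi-square test that was run on the 8 factors). Its log2 ratio in replicate 1 was -0.80, and -1.13 after the length and GC trends were removed. The kit used does not mark strand, so reads of RNAs that overlap cannot be told apart, but these 2 genes do not overlap in the annotation.

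**Figure D2:**
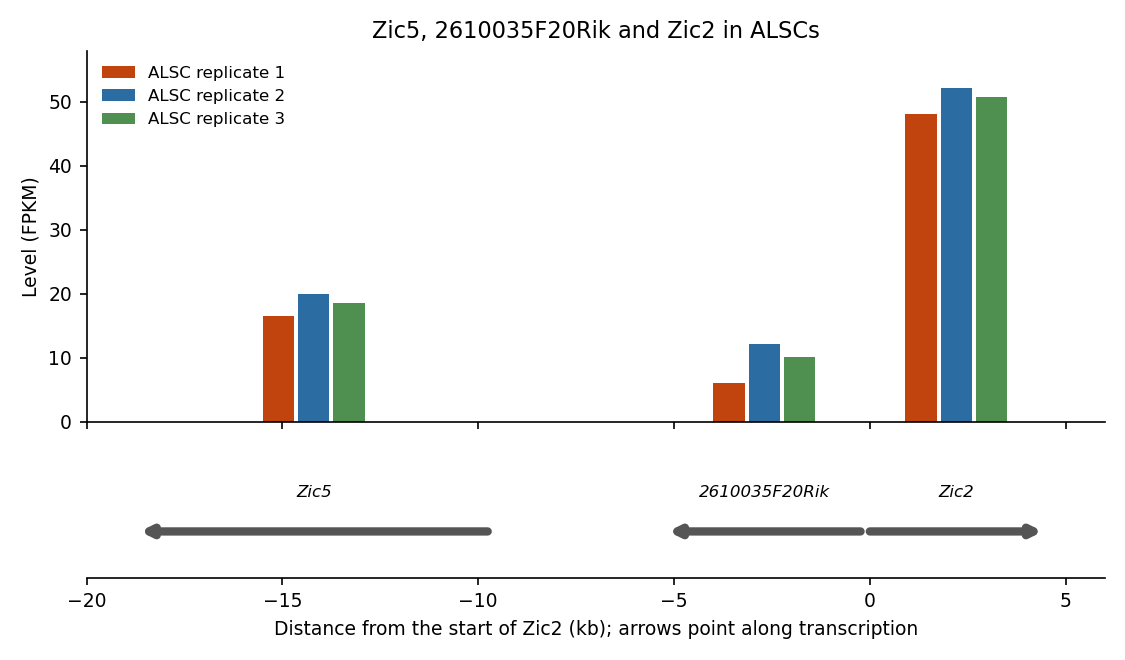
Levels (FPKM, bars for the 3 ALSC libraries) of *Zic5*, *2610035F20Rik* and *Zic2*, placed at their distance in kb from the start of *Zic2*, with arrows for the extent and direction of each gene. The lncRNA is at 6.13 FPKM in replicate 1 and at 12.2 and 10.2 FPKM in replicates 2 and 3, while *Zic2* stays between 48.2 and 52.2 FPKM.

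*Sox3* (ENSMUSG00000045179; chromosome X, 60891366 to 60893430, minus strand) is a gene of 1 exon whose protein shares the HMG box with SOX2. Counts of 148, 158 and 132 gave 3.96, 4.09 and 3.54 FPKM. Its CV of 7.36% on plain total counts was under the 8.28% that counting error alone gives at this depth. It was the only 1 of the 8 factors not lowest in replicate 1 on the FPKM scale, where replicate 3 was lowest. It ranked 398 among the transcription factor genes.

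*Foxd3* (ENSMUSG00000067261; chromosome 4, 99656299 to 99658622, plus strand), also of 1 exon, encodes a forkhead repressor needed in the epiblast. It had 38, 53 and 56 counts in replicates 1, 2 and 3. These gave 0.904 FPKM (exact 95% Poisson interval 0.640 to 1.24), 1.22 FPKM (0.912 to 1.59) and 1.34 FPKM (1.01 to 1.73). A difference between the libraries was not detected at this depth (adjusted p = 0.340 in the chi-square test that was run on the 8 factors). All libraries lay above the 0.0716 FPKM that 3 counts would give. The miRNA gene *Gm23366*, which lies within *Foxd3*, had 0 counts in every library.

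*Sall1* (ENSMUSG00000031665; chromosome 8, 89027235 to 89044162, minus strand, 4 exons) had 1290, 1956 and 1768 counts in replicates 1, 2 and 3, or 13.5, 19.8 and 18.6 FPKM. *Sall2* (ENSMUSG00000049532; chromosome 14, 52311172 to 52328762, minus strand, 2 exons) had 682, 952 and 829 counts, or 6.94, 9.36 and 8.46 FPKM. Both spalt genes were lowest in replicate 1 and highest in replicate 2. *Sall1* was 1.95, 2.12 and 2.20 times as high as *Sall2* in replicates 1, 2 and 3. All 50-base words of both transcripts were unique to their gene.

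The factors held different positions in their paralog families. In 3 families the epiblast factor was nearly alone. *Otx2* made up 99.8 ± 0.283% of the summed FPKM of the OTX family, *Pou3f1* 98.6 ± 0.309% of the POU3 family and *Foxd3* 98.6 ± 2.37% of the FOXD genes listed (SD, n = 3 for each). *Crx* and *Foxd4* had 0 counts in every library, and *Otx1*, *Pou3f2*, *Pou3f3*, *Foxd1* and *Foxd2* had at most 3 counts in any library. Their levels were at or under the limit that a count of 0 allows. *Pou3f4* was the other POU3 gene above it, at 0.310 ± 0.0812 FPKM from 13, 22 and 15 counts.

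For the ZIC family no shares are given. *Zic2* lay above *Zic5* in every library, as described above for the pair. *Zic1* and *Zic4*, which are neighbours on chromosome 9 and act in the neural tube and cerebellum, had 0 counts in every library. For *Zic1* this allows up to 0.0292 FPKM.

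*Sox3* was a minor SOXB1 gene. *Sox2*, the core pluripotency factor, was at 119 ± 5.21 FPKM and made up 90.8 ± 0.552% of the family. *Sox1*, best known from neural progenitors, was at 8.18 ± 0.393 FPKM, and its range of 7.78 to 8.57 FPKM lay above the 3.54 to 4.09 FPKM of *Sox3*. The ratio of *Sox2* to *Sox3* was 29.0, 28.9 and 35.3 in replicates 1, 2 and 3.

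In the SALL family *Sall4*, which sustains pluripotent cells together with OCT4 and NANOG, was at 19.2 ± 0.689 FPKM and *Sall3* at 0.532 ± 0.0888 FPKM. *Sall4* made up 42.6 ± 4.19%, *Sall1* 38.0 ± 3.48% and *Sall2* 18.2 ± 0.695% of the summed FPKM (SD, n = 3 for each). The balance of *Sall4* and *Sall1* rested on replicate 1. *Sall4* was 1.39 times as high as *Sall1* there and 1.01 and 1.00 times as high in replicates 2 and 3. Of the 4 genes, *Sall4* was the one whose replicate 1 did not lie under the other libraries after TMM scaling (log2 ratio 0.04), while *Sall1*, *Sall2* and *Sall3* had log2 ratios of -0.44, -0.29 and -0.37. The counts of *Sall3* did not vary beyond sampling noise (adjusted p = 0.331).

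**Figure D3:**
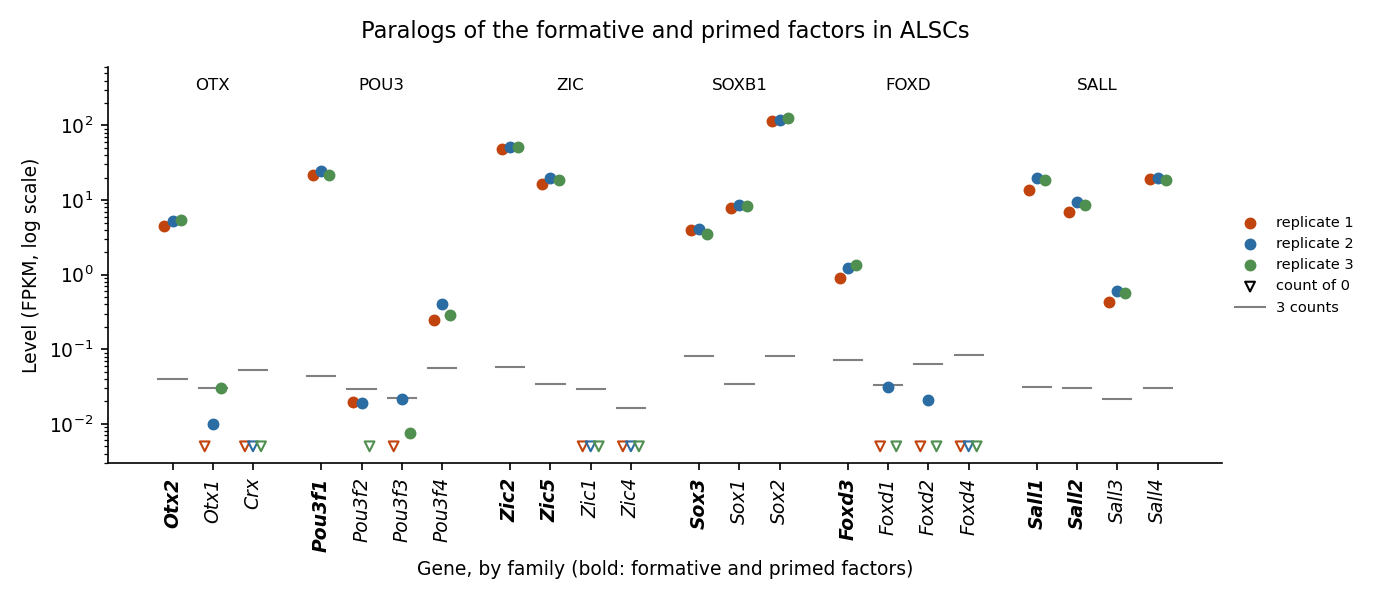
Level (FPKM, log axis) of the 8 factors (bold) and the paralogs analysed here, by family, with 1 point for each ALSC library. Open triangles are counts of 0, drawn at the foot of the axis, and grey lines are the level of 3 counts. *Otx2*, *Pou3f1* and *Foxd3* stand well above their paralogs, whereas *Sox2*, *Sox1* and *Sall4* are expressed beside the factors of their families.

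A chi-square test of the counts of each gene against the TMM-scaled library sizes asked whether the 3 libraries differed by more than counting error, with Benjamini-Hochberg adjustment over all 16944 genes that had at least 10 counts in total. The test sets the spread between libraries against counting error and compares libraries, not conditions. By this test 3 of the 8 factors varied, against 47.2% of all genes tested (53.1% at an unadjusted p under 0.05). They were *Sall1* (adjusted p = 2.08e-19), *Sall2* (2.81e-05) and *Zic5* (0.00163). The other 5 did not pass, with adjusted p = 0.0715 for *Pou3f1*, 0.223 for *Otx2*, 0.340 for *Foxd3*, 0.503 for *Sox3* and 0.749 for *Zic2*. With plain total counts in place of the TMM sizes, *Pou3f1* (adjusted p = 0.00422) and *Zic2* (0.0302) passed as well, which made 5 of 8 against 47.5% of all genes.

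Of the 8 factors 3 varied and were lowest in replicate 1, against 22.1% of the genes tested. These were all the factors that varied. Among all genes tested 8003 varied, and 3748 of these were lowest in replicate 1. Compared with the other libraries, replicate 1 had a log2 ratio of -0.44 for *Sall1*, -0.29 for *Sall2* and -0.16 for *Zic5*. *Foxd3* had -0.43, *Otx2* -0.16, *Zic2* -0.03, *Pou3f1* -0.02 and *Sox3* 0.12, none of which passed the test. In all, 6 of the 8 factors were lowest in replicate 1 after TMM scaling, against 40.9% of the genes tested. Without replicate 1, 0 of the 8 factors varied between replicates 2 and 3 (8.11% of genes did), and the adjusted p lay between 0.0988 for *Pou3f1* and 0.847 for *Zic2*. At an unadjusted p under 0.05, 1 of the 8 passed in that test, namely *Pou3f1*, against 21.2% of all genes. Without replicate 2 the same 3 factors passed (42.9% of genes), as they did without replicate 3 (46.7% of genes), and *Zic5* came close to the threshold without replicate 2 (adjusted p = 0.0469).

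The lower counts of long genes in replicate 1 moved with this result. *Sall2*, *Sall1* and *Zic5* are the longest of the 8 genes, at 5433, 5265 and 4889 bases. At their lengths the median log2 ratio of replicate 1 over 10573 well-counted genes was -0.09, -0.07 and -0.05. The log2 ratios of *Sall2*, *Sall1* and *Zic5* themselves were -0.29, -0.44 and -0.16, each below the median at its length. After the length and GC trends were removed gene by gene, the log2 ratio of replicate 1 became -0.34 for *Sall1*, -0.16 for *Sall2* and -0.10 for *Zic5*. *Sall1* (adjusted p = 1.17e-11) and *Sall2* (0.0354) passed the test after this step and *Zic5* did not (0.0787), against 37.9% of all genes. *Zic2*, a shorter gene of 2880 bases, passed after it (adjusted p = 0.0163), with a log2 ratio of -0.11 in place of -0.03. The direction of *Sox3* in replicate 1, which did not pass either test, changed from 0.12 to -0.07. Whether the trend accounts for the differences was not tested.

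**Figure D4:**
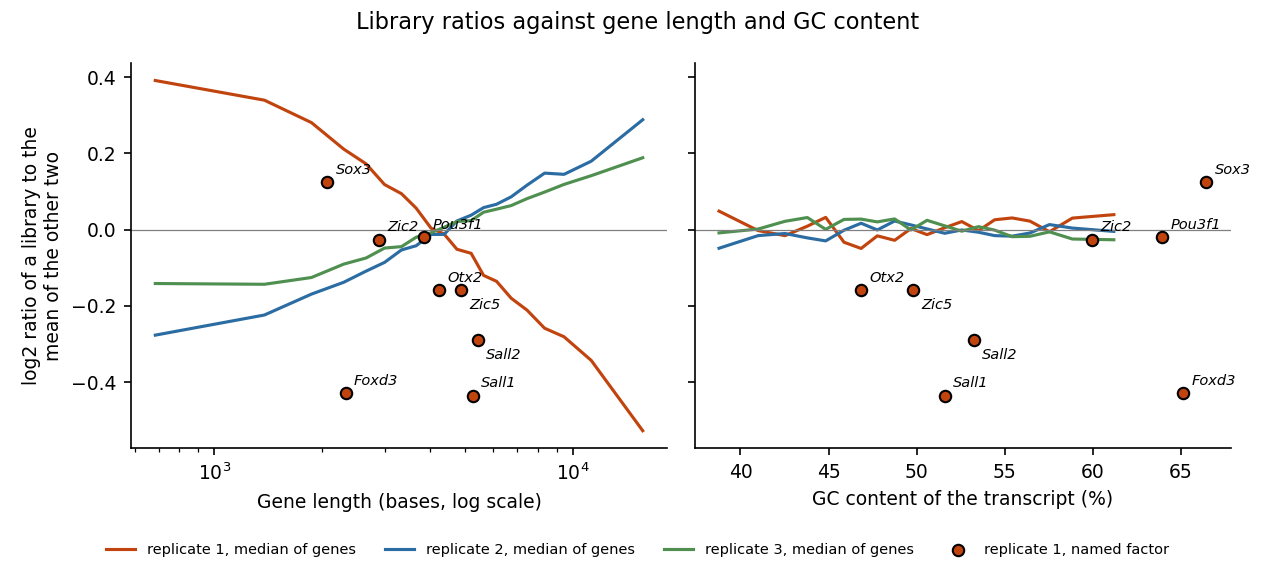
Log2 ratio of each library to the mean of the other two against gene length (left, log axis) and GC content (right). Lines are medians over 20 groups of equal size of 10573 genes, and the outlined points are the 8 factors in replicate 1. The line of replicate 1 falls from 0.39 to -0.53 with length and is nearly flat with GC content, and *Foxd3*, *Sall1* and *Sall2* lie furthest below it.

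**Figure D5:**
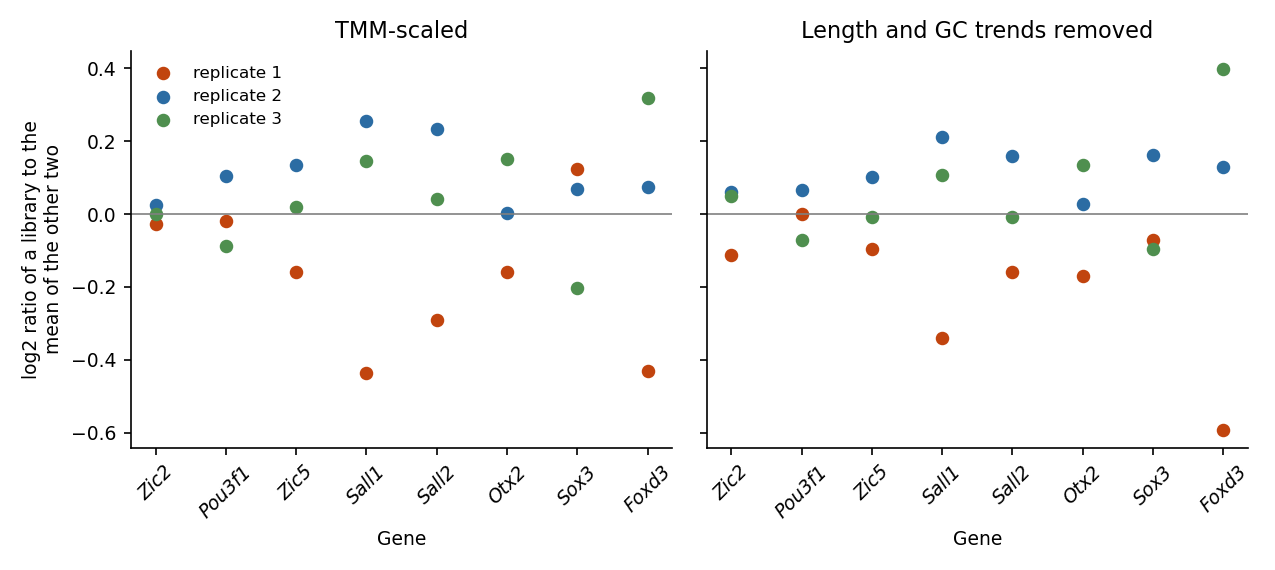
Log2 ratio of each library to the mean of the other two for the 8 factors, with TMM-scaled library sizes (left) and after the length and GC trends were removed (right). The points of replicate 1 for *Sall1* lie at -0.44 and -0.34, and those for *Pou3f1* and *Zic2* at -0.02 and -0.03 on the left.

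The spread of each factor was also given as its CV over the 3 libraries on plain total counts. Beside it stands the CV that counting error alone gives. These were 4.03% against 1.94% for *Zic2*, 6.37% against 2.51% for *Pou3f1*, 9.58% against 2.47% for *Zic5*, 19.3% against 2.45% for *Sall1*, 14.8% against 3.49% for *Sall2* and 19.4% against 14.3% for *Foxd3*. *Sall1* thus had nearly the CV of *Foxd3* at a far higher count. The spread depended on the scaling. With TMM library sizes the SD of *Zic2* was 0.609 FPKM in place of 2.03, and that of *Sall1* was 2.88 in place of 3.34. Only for *Sox3* was it larger, at 0.308 FPKM in place of 0.284. As TPM, the SD of *Zic2* was 14.3 around a mean of 139. The gene-wise dispersion of edgeR, which with 3 libraries is drawn strongly towards the trend over genes of like abundance, lay under that trend for 7 of the 8 factors and for 66.6% of all genes tested. For *Sall1* its square root was 0.150 against a trend of 0.141. For *Zic2* it was 0.119, above the CV measured, so these values are no measure of the spread of a single factor.

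Other genes of the formative and primed epiblast were broadly expressed in the same libraries. Of a list of 25 such genes, 24 were at 1 FPKM or more in every library, against 20.1% of all named genes. Over genes with a transcription factor family that share was 47.5%. The median over the list was 17.7 FPKM. The highest were *Lefty1*, an inhibitor and target of Nodal signaling, at 350.1 ± 26.9 FPKM and *Tdgf1*, the Nodal co-receptor, at 288 ± 7.34 FPKM. The lowest were *Foxp1* at 1.60 ± 0.0799 FPKM and the epithelial factor *Grhl2* at 1.02 ± 0.160 FPKM, which was under 1 FPKM in replicate 1. By the chi-square test 19 of the 25 varied, against 47.2% of all genes. A given ratio passes this test more readily at higher counts, and the share among genes of like counts was not computed. Of the 25 genes, 10 varied and were lowest in replicate 1, against 22.1% of all genes tested. A further 8 varied and were highest there, against 22.2%. Among the 8003 genes that varied, 3748 were lowest and 3760 highest in replicate 1. *Zic2*, the highest of the 8 factors, lay below *Lefty1* and *Tdgf1*.

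The naive genes were lower, with a median of 0.738 FPKM over the list. At 1 FPKM or more in every library were 3 of 12, against 20.1% of all named genes. Over genes with a transcription factor family 47.5% reached that level. The highest naive genes were *Klf5* at 11.7 ± 0.654 FPKM and *Klf2* at 3.29 ± 0.232 FPKM. The lowest were *Zfp42* with 3, 3 and 2 counts and *Tbx3* with 0, 1 and 0 counts. *Otx2* lay between *Klf5* and *Klf2* in level. All 4 core pluripotency genes reached 1 FPKM, with *Pou5f1* highest and *Sall4* lowest.

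Markers of other cell types were counted because several of the factors are used again in later lineages. The share at 1 FPKM in every library was 20.1% over all named genes and 47.5% over those with a transcription factor family. Of 9 neural genes 4 were at 1 FPKM or more in every library, with *Nes* at 34.3 ± 4.01 and *Tubb3* at 28.0 ± 1.31 FPKM, while *Neurog2* and *Pax3* had at most 1 count in any library. The summed level of the neural list was 70.8, 77.9 and 75.9 FPKM in replicates 1, 2 and 3. Of 6 neural crest genes other than *Foxd3* only *Sox9* reached 1 FPKM, at 2.01 ± 0.203, and *Sox10* was at 0.345 ± 0.148 FPKM. The list summed to 2.51, 2.97 and 2.69 FPKM, beside 0.904, 1.22 and 1.34 FPKM of *Foxd3*. A share of neural or crest cells and expression in every cell cannot be told apart in bulk RNA, and the part of such cells in these levels was not tested.

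Of the remaining lists, 1 of 6 genes of the primitive streak and mesoderm reached 1 FPKM in every library (*Eomes*, 1.32 ± 0.161 FPKM), 2 of 5 endoderm genes did (*Cer1* at 5.14 ± 0.771 and *Foxa2* at 1.96 ± 0.588 FPKM), 1 of 5 trophoblast genes did (*Ascl2*, 3.10 ± 0.125 FPKM) and 2 of 7 fibroblast genes did (*Thy1* at 6.88 ± 0.400 and *Col1a1* at 5.04 ± 1.11 FPKM). Over all named genes 20.1% did, and over those with a transcription factor family 47.5% did. Among the streak genes under 1 FPKM, *T* (Brachyury) had 24, 39 and 33 counts, or 0.754 ± 0.166 FPKM, *Tbx6* was at 0.756 ± 0.137 and *Mixl1* at 0.478 ± 0.113 FPKM, so 4 of the 6 lay above the level of 3 counts. *Mesp1* had at most 1 count and *Evx1* 0 counts in every library. Of the fibroblast genes *Dcn* and *Lum* had 0 counts in every library, and of the trophoblast genes *Cdx2*, *Elf5* and *Hand1* had at most 1. The 8 factors summed to 116, 136 and 129 FPKM in replicates 1, 2 and 3, more than the neural, neural crest, streak, endoderm, trophoblast or fibroblast list in any library. Such sums depend on which genes were listed and can rest on single genes. *Zic2* alone gave 48.2, 52.2 and 50.7 FPKM in replicates 1, 2 and 3.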

How the data were processed

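PolyA RNA of 3 ALSC samples was sequenced, and the submitters' processing notes name HISAT2 2.0.5. The authors deposited whole-number read counts per gene, with coordinates and a gene length. The counting program and its use of strand are not given in the sources used here. Coordinates equalled those of GENCODE M21 (GRCm38) for 99.5% of the genes found there. The table also holds 3 value columns whose names match none of these samples, and these were not used. Rows without a gene name (317, 0.165 to 0.182% of counts) were left out of totals and tests.

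FPKM and TPM were computed from the deposited counts and lengths. Variation between libraries was tested with a chi-square test (SciPy 1.17.1) against TMM library sizes (edgeR 4.0.16), with a minimum of 10 counts in total and an adjusted p threshold of 0.05. The dispersion was estimated with edgeR on an intercept. On simulated counts with 200 genes changed in 1 library, 128, 183 and 198 were recovered at 1.25, 1.5 and 2-fold. Of the unchanged genes 5, 7 and 11 were called in these runs, and 0 in a run with no change. The simulated counts held counting error only, so they do not show how the test does with further spread. Trends were medians over 20 groups of genes with a mean of 100 counts or more. With 1 condition, no group was tested against another. The 8 genes and all lists were chosen with earlier results of these data known. Genes named in the text are the 8 genes, paralogs of these (1 listed gene is not reported here), annotated genes within 20 kb, the nearest gene in level, and the highest and lowest of each list. Marker genes at 0 or at most 1 count were chosen after their values were seen. Alternatives were other library sizes, gene lengths, filters and detection levels, and each library left out in turn.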

Additional observations from a re-analysis of the deposited data

How the results depend on the processing

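As TPM, the levels were 139 for *Zic2*, 62.5 for *Pou3f1*, 51.0 for *Zic5*, 48.3 for *Sall1*, 23.0 for *Sall2*, 14.1 for *Otx2*, 10.7 for *Sox3* and 3.21 for *Foxd3*, in the order of the FPKM values. With the length of the longest coding transcript, *Zic2* was at 59.4 and *Otx2* at 8.27 FPKM. The number of factors whose counts varied was 5 with plain total counts, 3 with the trends on length and GC content removed (*Zic2* in place of *Zic5*), and 0 to 3 when 1 library was left out, with 0 without replicate 1. The ratio of *Zic2* to *Zic5* was 1.62 by counts without length. With the trends removed, the log2 ratio of replicate 3 changed sign for *Zic5* (-0.00864) and *Sall2* (-0.00764). The cause of these changes was not tested, other than the length for the ratio by counts. Of the other single values, 9 moved by more than their spread, 3 newly passed the test, 4 no longer passed it and 150 kept their call or size. Of the counts of list genes at a detection level, 13 moved by over 1.5 times, for the naive list and those of other cell types, and 17 did not. No paired analysis was possible because all 3 libraries are of 1 condition. At 38 to 56 counts, *Foxd3* is the factor whose value depth limits most.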

Other observations

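For each factor the gene with the nearest levels over the 3 libraries was sought among 13884 protein-coding genes, by the Euclidean distance of log2(FPKM + 0.1). It was *Cog2* for *Otx2* (0.0354), *Wee1* for *Pou3f1* (0.0434), *Cat* for *Zic2* (0.0397), *Rad50* for *Zic5* (0.0445), *Nudt18* for *Sox3* (0.0496), *Extl1* for *Foxd3* (0.0709), *Atp13a3* for *Sall1* (0.0370) and *Ank* for *Sall2* (0.0179). Between 3 genes (*Foxd3*) and 30 genes (*Otx2*) lay within 0.1 of a factor. With 3 libraries of 1 condition such likeness is mainly one of level.

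Within 20 kb of the 8 factors the annotation holds 24 pairs of a factor and a neighbour, and 4 of these overlap. Protein-coding neighbours with clear levels were *Utp11* near *Pou3f1* (22.2 ± 2.62 FPKM), *Tox4* near *Sall2* (9.02 ± 1.33 FPKM) and *Mettl3* near *Sall2* (6.12 ± 0.156 FPKM; SD, n = 3 for each). *Gm14662*, 223 bases from *Sox3*, had 1, 2 and 0 counts in replicates 1, 2 and 3.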
